A study of Mus musculus with 4 samples.

Results

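The 6 genes of 1 regulatory circuit, the transcription factors Egr1, Egr2, Egr3 and Egr4 and the corepressors Nab1 and Nab2, were followed in mouse T-helper 17 (Th17) cells. These 6 were picked by symbol out of 50600 gene identifiers, each identifier being matched without its version number, and all 6 were found. RNA had been sequenced in 4 libraries of a single group, numbered as biological replicates 1 to 4, of primary Th17 cells from strain C57BL/6NJ, with no treatment or genotype named beside the strain. Th17 cells are CD4 T cells known for producing interleukin 17, and the linked protocol differentiates them from CD4+ T cells. The libraries carry different biosample identifiers and 1 shared donor identifier, with sex not collected and age unknown. The labels do not say how many animals or cultures the biosamples came from, so SDs and p-values describe how far these 4 libraries differ. The assay is titled total RNA-seq, the linked library protocol is named for poly(A)+ RNA, and output names in the headers bear a 2 hour tag whose starting event is not stated. There is no control group, so the values are levels and differences within and between these libraries, and fewer cells making an RNA cannot be told apart from less of it per cell.

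EGR proteins are zinc finger transcription factors whose genes are switched on within minutes of receptor signalling, in T cells by the T cell receptor acting through the ERK kinase cascade, serum response factor with its ternary complex partners, and NFAT. They bind GC-rich DNA. Egr1, Egr2 and Egr3 carry a repression domain that binds NAB proteins, a domain Egr4 lacks, and NAB proteins bring the NuRD chromatin remodelling complex to EGR-bound genes. In T cells Egr2 and Egr3 are known for restraining activation, in part by raising the ubiquitin ligase gene Cblb, and NAB2 is itself induced by EGR factors in several cell types, which closes a feedback loop.

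Promoter sequence was examined first, because transcription of these genes is known to be set through elements close to their starts. RefSeq windows on GRCm38.p6, running from 250 bases before to 50 bases after a gene start, were matched for 4 of the 6 genes: 5 windows for Egr2 and 1 each for Egr4, Nab1 and Nab2. Egr1 and Egr3 had no window. The stretches before the start are shown for Egr2 (chr10:67537619-67537868, plus strand), Egr4 (chr6:85513590-85513839, minus strand) and Nab2 (chr10:127666704-127666900, minus strand, 197 bases long and ending where an exon of the opposite-strand gene Nemp1 begins), each 5′ to 3′ on the gene's strand. The capitals in Egr2 mark a CArG box, the element that serum response factor binds.
Egr2: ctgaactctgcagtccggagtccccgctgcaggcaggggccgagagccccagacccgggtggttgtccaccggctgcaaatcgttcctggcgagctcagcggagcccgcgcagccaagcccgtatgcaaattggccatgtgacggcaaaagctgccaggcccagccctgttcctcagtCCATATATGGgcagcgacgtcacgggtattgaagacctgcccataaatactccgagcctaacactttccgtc
Egr4: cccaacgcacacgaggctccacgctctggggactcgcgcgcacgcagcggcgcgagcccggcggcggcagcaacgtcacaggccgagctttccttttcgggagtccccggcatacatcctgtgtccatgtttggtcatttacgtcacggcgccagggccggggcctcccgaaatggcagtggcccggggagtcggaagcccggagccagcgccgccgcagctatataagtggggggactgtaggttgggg
Nab2: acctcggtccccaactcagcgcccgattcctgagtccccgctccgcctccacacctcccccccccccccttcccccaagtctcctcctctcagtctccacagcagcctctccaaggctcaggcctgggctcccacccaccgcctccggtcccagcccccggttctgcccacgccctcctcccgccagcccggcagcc

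The CArG box shown for Egr2 lay 72 to 63 bases before that start, and 1.63% of 32817 RefSeq windows of this length hold a CArG box on either strand. Of the 5 overlapping or neighbouring Egr2 windows 4 held a CArG match, 3 of them this one and 1 of them another, so the share for single windows does not describe the whole gene. The remaining Egr2 window, the most upstream of these 5, held none and had 4 Sp boxes. The RefSeq gene record of Egr2 begins further upstream than all 5 windows, and sequence around that beginning was not searched. Egr4 held no CArG box. Like the Egr2 stretch, it had the short cAMP response motif TGACG 2 times, which 5.01% of windows hold 2 or more times, and a TATAA match 27 to 23 bases before the start, where 24.9% of windows hold that motif anywhere. No EGR site, searched as GCGNGGGCG on both strands, was in the windows of Egr2, Egr4 or Nab2. The deposited Nab2 model begins 1865 bases upstream of the RefSeq start used here, and sequence around that further start was not searched. The Nab1 window held 3 EGR sites, against 0.195% of all windows with 3 or more and 5.56% with at least 1. That window is 81.7% G or C, and these shares are over windows of any G and C content. These 3 sites are shown with 10 bases on each side and the site in capitals, because they are the only matches to the factors' own motif among the windows of the 6 genes.
Nab1, site from 141 bases before the start: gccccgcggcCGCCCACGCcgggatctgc
Nab1, site from 109 bases before the start: actcggccgcGCGTGGGCGggagccggag
Nab1, site from 38 bases before the start: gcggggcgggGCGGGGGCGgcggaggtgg

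They lie on the minus strand at chr1:52500571-52500599, chr1:52500539-52500567 and chr1:52500468-52500496, the first with its motif on the opposite strand. All 3 fall inside the first exon of the deposited Nab1 gene model. That model and the RefSeq gene record of Nab1 both begin further upstream than the RefSeq start used here. The sites thus lie before that start but downstream of both of these beginnings. Each site also overlaps a match to the Sp box GGGCGG, which the same window held 7 times and 10.7% of windows hold 3 or more times. A match describes letters and not binding, which was not measured.

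Library totals ran from 25847970 to 40652146 counted fragments, and the 6 genes took 0.809 to 0.963% of them. All 7 T cell markers were present, with summed levels of 7368 to 7884 TPM (fragments divided by exon length, then scaled to the same total in each library). Of 10 Th17 markers 8 reached a mean of 1 TPM. Irf4, Batf and Stat3, which T cells share beyond this lineage, stood at 1856, 684 and 599 TPM, while the lineage cytokines Il17f and Il17a stood at 12.4 and 5.65 TPM, and the receptors Ccr6 and Il23r were below 1 TPM at 0.207 and 0.132. Il17f itself varied between libraries beyond the trend (10.2, 7.04, 11.7 and 20.8 TPM, edgeR adjusted p = 0.0170). Summed CD8 T cell markers were at 66.4 to 93.4 TPM, with 3 of 4 above 1 TPM and Cd8a at 0.216. B cell markers summed to 0.392 to 1.88 TPM with 1 of 5 above 1 TPM and Ms4a1 at 0 in every library, and myeloid markers to 0.749 to 1.42 TPM with 0 of 5 above it. Of 3 NK cell markers 1 was above 1 TPM, summing to 0.623 to 1.42, with Ncr1 and Klrb1c at 0, and all 4 erythroid and platelet markers were at 0. Xist, expressed from the inactive X chromosome, was at 0.791, 0.602, 142 and 76.5 TPM in replicates 1 to 4, and the Y-linked Ddx3y at 305, 213, 0.914 and 1.39 TPM. Replicates 1 and 2 thus carried the male pattern of these genes and replicates 3 and 4 the female one, so the 4 libraries did not all come from 1 animal, although the labels give them 1 donor identifier. This is a division that none of the 6 EGR and NAB genes followed in TPM.

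Egr1, the prototype of the family (ENSMUSG00000038418, GRCm38 chromosome 18, plus strand), was the highest of the 6, at 3808, 4419, 4053 and 3581 TPM in replicates 1 to 4. Its mean of 3965 TPM ± 359 (SD, n = 4) ranked 20 among 21764 protein coding genes, and it alone took 0.520% ± 0.0521 of all counted fragments. Replicate 2 was highest and replicate 4 lowest, and the highest library exceeded the lowest by 1.23-fold. The deposited gene model is 4484 bases long, of which 35.7% is coding, and it begins 1384 bases upstream of the RefSeq start.

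Egr3 (ENSMUSG00000033730, chromosome 14:70077445-70080157, plus strand), a close relative of Egr2 that acts redundantly with it in lymphocytes, followed at 2625, 3139, 2773 and 2405 TPM, with a mean of 2735 ± 309 (SD, n = 4) and rank 37. Again replicate 2 was highest and replicate 4 lowest. Its deposited model holds 1416 exon bases, of which 82.0% are coding. The model of the later GENCODE release reaches 2457 bases further in the 3′ direction, and fragments from those bases are not in the count, so the Egr3 level rests mostly on its coding sequence.

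Egr2 (ENSMUSG00000037868, chromosome 10:67535475-67542188, plus strand) stood at 1298, 1464, 1399 and 1133 TPM in replicates 1 to 4. Its mean was 1324 ± 144 (SD, n = 4), rank 87, over a model of 3398 bases. The same libraries were at the top and bottom as for Egr1 and Egr3.

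Egr4 (ENSMUSG00000071341, chromosome 6:85511121-85513589, minus strand), the member without the NAB-binding domain, was the lowest of the 6. It had 66, 120, 53 and 45 fragments, or 2.92, 4.57, 3.26 and 2.71 TPM, with a mean of 3.36 ± 0.833 (SD, n = 4) and rank 8612. As a share of all fragments, scaled to CPM, replicate 2 stood at 2.95 with a 95% Wilson interval of 2.47 to 3.53. Replicates 1, 3 and 4 stood at 1.82, 1.97 and 1.74 CPM, with upper Wilson bounds of 2.31, 2.57 and 2.33. These intervals cover counting error only. Replicate 2 was thus the highest for this gene too, its interval overlapping that of replicate 3 and not those of replicates 1 and 4.

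The corepressors lay below Egr2 and above Egr4 in every library. Nab2 (ENSMUSG00000025402, chromosome 10:127660918-127668568, minus strand) stood at 548, 382, 397 and 617 TPM in replicates 1 to 4, a mean of 486 ± 115 (SD, n = 4) and rank 275. Nab1 (ENSMUSG00000002881, chromosome 1:52457294-52500679, minus strand) stood at 492, 402, 383 and 472 TPM, a mean of 437 ± 52.6 (SD, n = 4) and rank 313. For both genes replicates 1 and 4 lay above replicates 2 and 3, and the highest library exceeded the lowest by 1.62-fold for Nab2 and 1.28-fold for Nab1.
Nab2 shares exon bases on the opposite strand with Stat6 (40 bases), Nemp1 (151 bases) and the antisense gene Gm16229 (1050 bases, 50 fragments in all 4 libraries), which the strand-specific counting kept separate. Of the Nab1 stretches of 31 bases, 6.37% also occur in other genes, and at most 0.523% do for any of the other 5 genes.

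**Figure D1:**
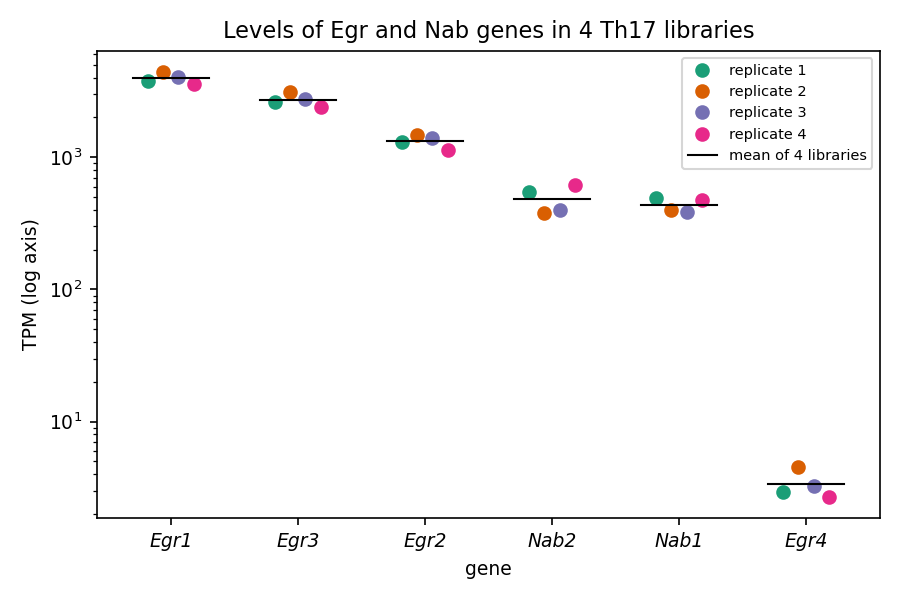
TPM of the 6 genes in each of the 4 Th17 libraries, on a log axis, with a bar at the mean. Egr1, Egr3 and Egr2 lie between 1133 and 4419 TPM, Nab2 and Nab1 between 382 and 617 TPM, and Egr4 between 2.71 and 4.57 TPM.

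Levels were then compared between genes within each library, as differences in log2(TPM + 1), and tested by exact permutation of the signs of the 4 within-library differences (two-sided). The smallest p such a test can give here is 0.125, so no pair could pass 0.05. Of the 15 pairs, 14 had the same gene higher in 4 of 4 libraries, each at the smallest p (exact p = 0.125, Benjamini-Hochberg adjusted 0.134). The Egr1 level exceeded the Egr3 level by 0.54 ± 0.03 log2 units (SD, n = 4), and Egr2 minus Egr3 was -1.05 ± 0.05. Egr2 stood 1.47 ± 0.50 log2 units above Nab2, a margin that ran from 0.88 in replicate 4 to 1.94 in replicate 2. Nab1 and Nab2 did not differ beyond their spread. Nab1 minus Nab2 was -0.13 ± 0.20, Nab1 was higher in 1 of 4 libraries, and the exact permutation test gave p = 0.375. Egr4 was below Nab1 by the widest gap between neighbours, Egr4 minus Nab1 being -6.66 ± 0.40. Per length of the whole exon model, the order of the means was Egr1, Egr3, Egr2, then the NAB genes without a rank between them, then Egr4. Division by the length of the shortest principal transcript in place of the whole exon model gave 3747, 1750, 971, 354, 296 and 2.15 TPM for Egr1, Egr3, Egr2, Nab2, Nab1 and Egr4, which keeps the order of the means. No length was allowed to exceed the deposited model, and that of Egr3 stayed at 1416 bases. The place of Egr3 was therefore not examined with a longer model. With those lengths Nab1 minus Nab2 was -0.24 ± 0.20, with Nab1 higher in 0 of 4 libraries (exact permutation p = 0.125), so the lack of a rank between the NAB genes holds only for the whole exon model. Without division by length, as CPM, Egr2 minus Egr3 turned to 0.22 ± 0.05 and Nab1 minus Nab2 to 0.35 ± 0.20, each positive in 4 of 4 libraries.

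The proportions of Egr1, Egr2 and Egr3 to each other varied less between libraries than their levels did. The Egr4 share of the summed EGR TPM varied more widely than theirs, with a coefficient of variation of 14.7%. That was still below the 24.8% of the Egr4 level, and both rest on 45 to 120 fragments a library. Egr1 made up 49.4% ± 0.585 of the summed EGR TPM (SD, n = 4), Egr3 34.0% ± 0.497, Egr2 16.5% ± 0.504 and Egr4 0.0415% ± 0.00611. The ratio of Egr1 to Egr3 was 1.45, 1.41, 1.46 and 1.49 in replicates 1 to 4, a coefficient of variation of 2.33%, while Egr1 itself varied by 9.05% and Egr3 by 11.3%. The ratio of Egr1 to Egr2 was 2.93, 3.02, 2.90 and 3.16, a coefficient of variation of 3.91%. By the SD of the log2 ratio to Egr1 across the libraries, Egr3 was the gene at rank 54 and Egr2 at rank 225 of 11566, whose median SD was 0.222, where low genes carry more counting error. Egr4 was at rank 5174, with an SD of 0.206, and the ratio of Egr1 to Egr4 had a coefficient of variation of 13.6%. Nab1 and Nab2 had larger SDs than the median, 0.285 and 0.466. These values describe 4 libraries and carry no test.

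The ratio of EGR to NAB levels varied between libraries more than the EGR level did. Summed EGR levels were 7734, 9028, 8228 and 7121 TPM, and summed NAB levels 1040, 784, 781 and 1089 TPM, in replicates 1 to 4. Their ratio was 7.44, 11.5, 10.5 and 6.54, with a mean of 9.01 ± 2.40 (SD, n = 4). Replicates 2 and 3 had the higher ratios and replicates 1 and 4 the lower ones, and the highest exceeded the lowest by 1.76-fold, compared with 1.27-fold for the summed EGR level. The ratio is taken within a library and does not depend on how libraries are scaled to each other. Within the corepressors, Nab2 over Nab1 was 1.12, 0.949, 1.04 and 1.31.

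**Figure D2:**
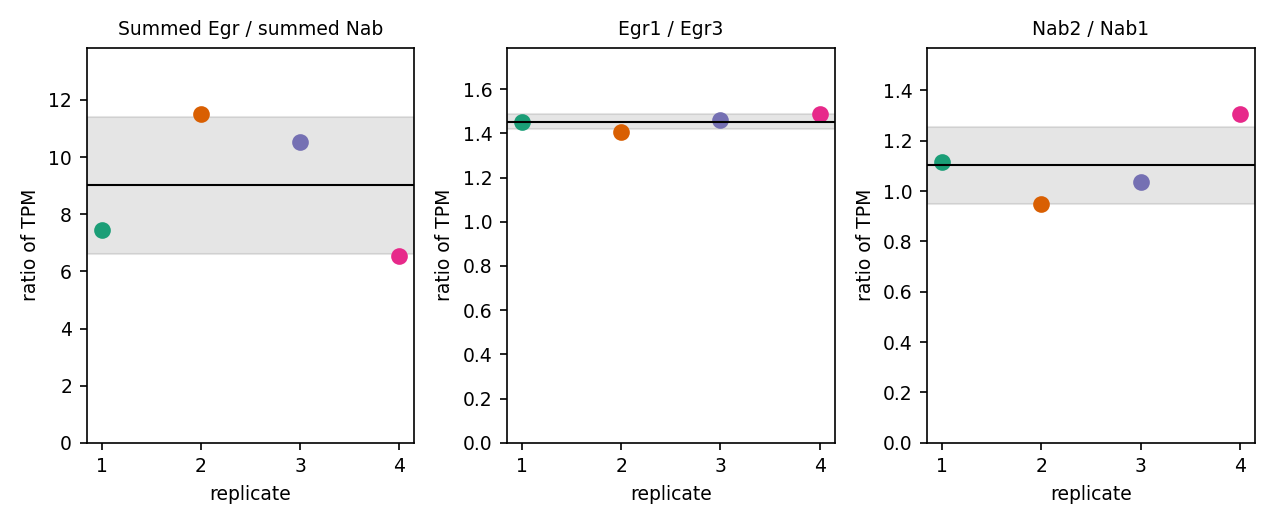
Ratios of TPM by replicate, each axis starting at 0, with the mean as a line and 1 SD as a grey band. The ratio of summed EGR to summed NAB genes runs from 6.54 to 11.5, Egr1 over Egr3 stays between 1.41 and 1.49, and Nab2 over Nab1 runs from 0.949 to 1.31.

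Variation between libraries was tested for each gene against genes of like abundance (edgeR, 1-group negative binomial fit, deviance at the trended dispersion, Benjamini-Hochberg adjustment). Of 11567 genes tested, 94 were called at an adjusted p under 0.05, which is 0.813%, and 0 of the 6 EGR and NAB genes were among them. Nab2 came closest, with an edgeR p of 0.00901 and an adjusted p of 0.335, at rank 311 of all genes; it is the 1 of the 6 with an unadjusted p under 0.05. For Egr1, Egr2, Egr3, Egr4 and Nab1 the edgeR adjusted p was 1, from unadjusted values of 0.673, 0.654, 0.518, 0.425 and 0.261. With replicate 4 left out the unadjusted edgeR p of Nab2 was 0.0909, and without replicate 1, 2 or 3 it was 0.00965, 0.0114 and 0.0122.

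The order of the libraries depended in part on the scale. Scaling by trimmed mean of M values (TMM, as CPM per kilobase of exon) moved the libraries against TPM by 0.19 log2 units from replicate 3, which TPM places relatively high, to replicate 4. On both scales all 4 EGR genes were highest in replicate 2, where 18.5% of tested genes are highest in TPM and 27.6% on the TMM scale. On TPM the rest of the order was replicate 3, 1 and 4 for each EGR gene. On the TMM scale replicates 1, 3 and 4 lay close together for Egr1, at 1118, 1092 and 1100 against 1337 in replicate 2. For Egr3 they stood at 771, 747 and 738 against 950, and for Egr4 at 0.858, 0.878 and 0.833 against 1.38. Egr2 stood at 381, 377 and 348 against 443, with replicate 4 further apart. On both scales the 2 highest libraries of Nab1 and of Nab2 were replicates 1 and 4, a property of 14.2% of tested genes in TPM and 20.7% on the TMM scale. These orders were noticed after the values were seen and carry no test. Depth was 36298276, 40652146, 26953724 and 25847970 fragments in replicates 1 to 4, so replicate 2 was also the deepest library, and the order of depth is the order of Egr2 and Egr3 on the TMM scale. On that scale Egr1, Egr2 and Egr3 also had replicates 1 and 2 above replicates 3 and 4, the division seen in Xist and Ddx3y. Replicates 1 and 4, highest for the NAB genes, were not neighbours in depth and lay on different sides of that division. Mitochondrial transcripts made up 2.16, 2.16, 1.98 and 2.40% of the fragments and ribosomal protein genes 5.78, 6.44, 5.11 and 6.47% in replicates 1 to 4. The part of depth, of the division in sex-linked genes and of these shares in the orders was not tested.

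**Figure D3:**
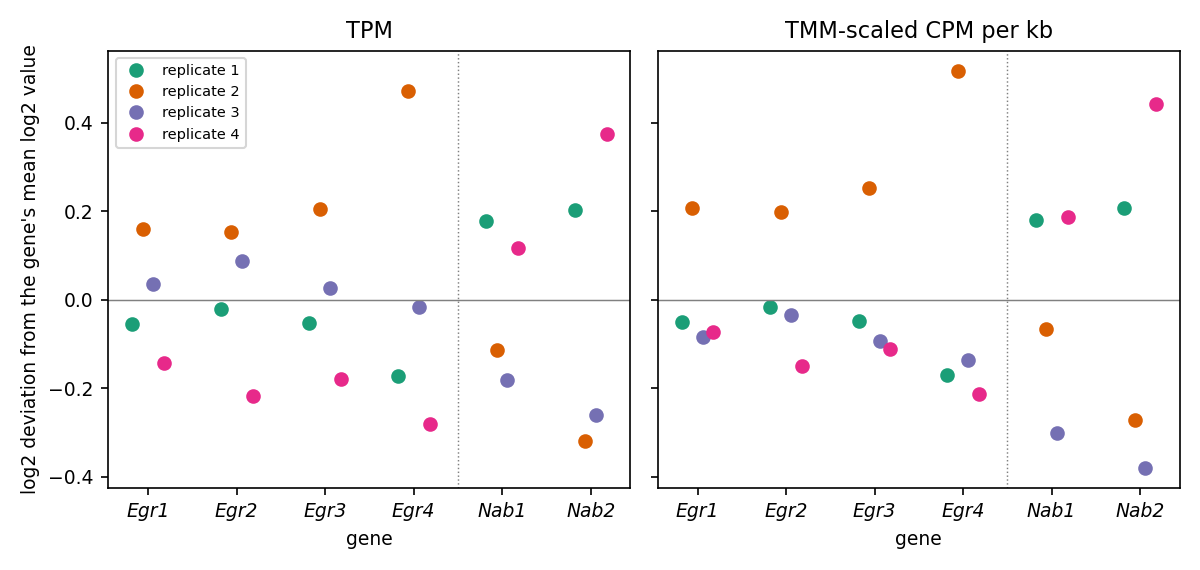
Log2 deviation of each gene in each library from that gene's mean log2 value, on the TPM scale and on the TMM scale. On both scales replicate 2 is the highest for the 4 EGR genes and replicates 1 and 4 are the highest for Nab1 and Nab2, while the other EGR positions change with the scale.

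The genes nearest in level place each member among familiar transcripts. Nearest was defined as the smallest root mean square difference in log2(TPM + 1) over the 4 libraries, among protein coding genes. Egr1 lay beside the MHC class I gene H2-D1 at 3904 TPM (difference 0.11 log2 units), the AP-1 subunit Junb at 4039 TPM (0.12) and the ribosomal protein gene Rps3a1 at 3869 TPM (0.16). Egr3 lay beside the actin-binding Tmsb4x at 2457 TPM (0.16), the mitochondrial mt-Nd4 at 2636 TPM (0.20) and the immediate early gene Ier2 at 2373 TPM (0.22). Egr2 lay beside the antiproliferative Btg1 at 1278 TPM (0.09), Zfp36, which destabilises cytokine mRNAs, at 1398 TPM (0.10), and Shisa5 at 1363 TPM (0.11). Egr4 was matched by Bet1 at 3.38, Asb7 at 3.26 and Gpc1 at 3.41 TPM.

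Nab1 was nearest to the translation initiation factor Eif3d at 438 TPM (0.06), the methionine adenosyltransferase Mat2a at 448 TPM (0.07) and the chromatin organiser Satb1 at 460 TPM (0.09). Nab2 was nearest to Rapgef6, an exchange factor for Rap GTPases, at 603, 359, 400 and 652 TPM in replicates 1 to 4 (0.09), which has the same order of libraries as Nab2 in TPM. Rapgef6 was picked for its closeness to Nab2 in these same libraries, so the shared order is not a separate result. Next came nucleolin (Ncl) at 490 TPM (0.13) and Satb1 again (0.17).

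The genes upstream and downstream were taken from lists. Inputs to EGR transcription, from the ERK cascade to serum response factor and NFAT, were all present: 16 of 16 were at or above 1 TPM, with a median of the mean levels of 48.5 TPM against 19.8 TPM over all tested genes, and 0 of 16 varied beyond the trend, 2 of them having an unadjusted edgeR p under 0.05. Over all tested genes 0.813% were called and 5.98% had such an unadjusted p, so a count of 0 in a list of this size is near the background. The highest were Rasgrp1, which couples the T cell receptor to Ras, at 229 TPM, the ternary complex factor Elk4 at 216 TPM and Nfatc1 at 160 TPM. The lowest were Elk3 at 12.8 TPM and the serum response factor coactivator Mrtfb at 7.11 TPM. All 16 lay below Nab1.

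The NuRD subunits that NAB proteins recruit were present as well, 13 of 13 at or above 1 TPM with a median of 89.6 TPM. Beyond the trend 0 of 13 varied, with 0 at an unadjusted edgeR p under 0.05. Against 0.813% and 5.98% of all tested genes, both counts of 0 are near the background for this list size. The chromatin remodeller Chd3 stood at 326 TPM, Mta2 at 305 TPM and Chd4, the remodeller NAB2 is known to bind, at 275 TPM. Gatad2b at 40.3 and Mta3 at 28.8 TPM were the lowest. Each of the 13 was lower than both NAB genes.

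Other immediate early genes gave the setting for the EGR levels. All 20 were at or above 1 TPM, with a median of 1133 TPM. Beyond the trend 0 of 20 varied, with 0 at an unadjusted edgeR p under 0.05. Over all tested genes the shares were 0.813% and 5.98%, so both counts of 0 are near the background for this list size. Of the list only Nr4a1 at 14458 TPM and Junb at 4039 TPM lay above Egr1, and Nr4a3 at 3837 TPM was next. Ier3 at 13.4 and Fosl1 at 6.95 TPM were the lowest, both still above Egr4. In TPM, 7 of the 20 were highest in replicate 2, as the EGR genes were, against 18.5% of all tested genes. All 7 were so on the TMM scale too, where 9 of 20 were, against 27.6% of all tested genes.

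Of the other factors that bind GC-rich sites, Sp1 at 134, Sp3 at 111, Sp4 at 111 and Sp2 at 107 TPM were within a narrow range. Of these 4, 0 varied beyond the trend, against 0.813% of all tested genes. Wt1, whose zinc fingers resemble those of the EGR proteins, had 0 fragments in all 4 libraries, which allows up to 3 counts a library, or 0.116 CPM in the shallowest.

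Of the 5 lists of pathway genes, the genes reported as EGR targets in T cells, a list compiled from general knowledge, held the calls. Of 21 genes, 18 were at or above 1 TPM, 20 were tested, and 3 varied beyond the trend, or 3 of 20 against 0.813% of all tested genes. As the list was chosen with earlier results of these data known, this is a description and not evidence of an excess. Cblb, the ubiquitin ligase that dampens T cell receptor signals, stood at 417, 203, 242 and 461 TPM in replicates 1 to 4 (edgeR adjusted p = 0.00114). Bcl6, a repressor that directs follicular helper T cells, stood at 31.7, 15.3, 18.9 and 36.4 TPM (edgeR adjusted p = 9.66e-05). Il2, the T cell growth factor gene, stood at 21.9, 12.9, 14.2 and 43.5 TPM (edgeR adjusted p = 7.33e-05). All 3 were highest in replicate 4, then replicate 1, and lowest in replicate 2 on the TPM scale, the order of Nab2 and not that of Egr1, Egr2 or Egr3. Nab1 was highest in replicate 1 and lowest in replicate 3 in TPM, and Nab2 was lowest in replicate 3 on the TMM scale. The share of all tested genes with this full order was not counted.

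Of the 20 tested targets, 10 had replicates 1 and 4 as the 2 highest, the same 10 on both scales, against 14.2% of all tested genes in TPM and 20.7% on the TMM scale. On the TMM scale 8 of 20 other immediate early genes and 5 of 13 NuRD genes had that order too, compared with 3 of 20 and 3 of 13 in TPM. In TPM, 3 of the 20 targets were highest in replicate 2, against 18.5% of all tested genes. On the TMM scale 5 of 20 were, against 27.6%. The highest of the list were the cytokine signalling inhibitor Socs1 at 1883 TPM, the early activation marker Cd69 at 1243 TPM and Socs3 at 908 TPM. The anergy-associated ligase Rnf128 at 0.924 TPM and Nrgn at 0.459 TPM were the lowest. The list holds genes reported as raised and as lowered by EGR factors, so no direction is implied for it, and the test of variation shows only that Cblb, Bcl6 and Il2 differ between these libraries.

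**Figure D4:**
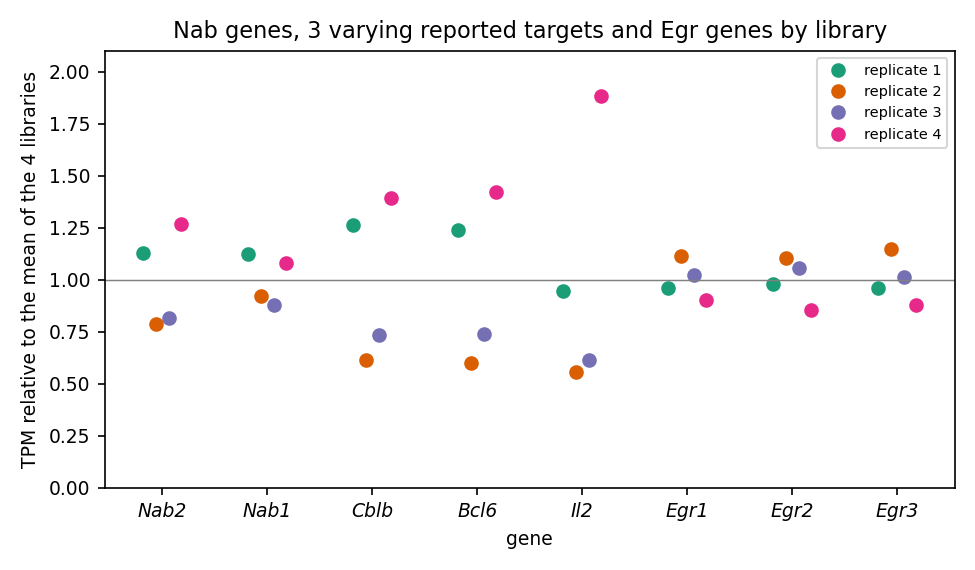
TPM of the NAB genes, the 3 called targets and the 3 high EGR genes in each library, divided by the gene's mean over the 4 libraries. Nab2, Nab1, Cblb, Bcl6 and Il2 are highest in replicates 1 and 4, and Egr1, Egr2 and Egr3 are highest in replicate 2.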

How the data were processed

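Each of the 4 libraries has 1 deposited table of raw counts of fragments by gene. Per the file headers, the authors counted with featureCounts 1.4.6-p4 over exons of GENCODE mouse M13, taking read pairs mapped at both ends and strand setting 2. Alignment file names there mention STAR, with its version not given in the sources used here; mm10 is the labelled assembly. Fragments overlapping several genes or aligning to several places were not counted under these options, so near-identical copies are undercounted. From these counts and the exon lengths in the same tables, TPM, CPM and TMM-scaled CPM per kilobase were computed here (Python 3.11.15 with pandas 2.3.3, numpy 2.4.6, matplotlib 3.10.9 and scipy 1.17.1). Variation was tested with edgeR 4.0.16 in R 4.3.3 (filterByExpr, TMM, 3 degrees of freedom) over all genes, with DESeq2 1.42.0 size factors as an alternative. The test was also run on counts simulated at the trended dispersion it assumes, which cannot show how it behaves for genes off that trend. Levels were compared on log2(TPM + 1), Benjamini-Hochberg adjusted over 15 pairs. A test of a group effect does not apply to 1 group, and replicate numbers pair nothing.

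The 6 genes and all lists were chosen with earlier results of these data known. Named genes are the 6, the 3 nearest in level of each, and from each list the 3 highest, the 2 lowest and all that varied beyond the trend; other genes are given as counts, markers apart. Alternatives were scale, genes in the TPM total, pseudocount 0.1, length, filter, dispersion and leaving out each replicate. Totals of 25847970 to 40652146 fragments put the limit of 3 counts at 0.0738 to 0.116 CPM.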

Additional observations from a re-analysis of the deposited data

Results flagged for a closer look

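Egr4 made up 0.0506% of the summed EGR TPM in replicate 2, against 0.0378 to 0.0396% in the other 3 libraries. The gap of replicate 2 to its neighbour was larger than Dixon's 95% limit for 4 samples allows. It was 1 of 33 values examined in this way, and chance flags about 1 in 20. The share rests on 120 Egr4 fragments in replicate 2 and on 66, 53 and 45 in replicates 1, 3 and 4.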

How the results depend on the processing

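Of 135 differences in level between the 6 genes recomputed under other settings, 133 kept their direction. The other 2 turned when CPM values were not divided by exon length: Egr2 minus Egr3 became 0.2156 and Nab1 minus Nab2 became 0.3481, both by construction, since length was left out. None of the 6 genes was called for variation under any of the 7 other settings run, 42 results in all. The number of all genes called was 256 with a common dispersion and 35 to 60 when 1 replicate was left out, against 94; it was 92 with DESeq2 size factors and 85 without the filter on low counts. The settings with principal transcript length and with unscaled counts were added after the data were seen. Depth limits Egr4, with 45 to 120 fragments a library. No paired analysis was possible because there is 1 group.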

Other observations

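The NFAT pair had opposite orders of the libraries in TPM, and neither gene passed the test of variation. Nfatc1 stood at 176, 128, 133 and 203 TPM in replicates 1 to 4 (edgeR adjusted p = 0.463), with replicates 1 and 4 highest as for Nab1 and Nab2. Nfatc2, a gene singled out with its values known, stood at 15.7, 23.5, 22.7 and 13.6 TPM (edgeR adjusted p = 0.346), with replicates 2 and 3 highest. Among the 94 genes that varied beyond the trend, 20 had replicates 1 and 4 as the 2 highest in TPM, or 21.3%, against 14.2% of all tested genes. On the TMM scale it was 21 genes, or 22.3%, against 20.7%, so the TPM difference is scale-dependent. Of the 94, 7 were highest in replicate 2 on either scale, or 7.45%, against 18.5% in TPM and 27.6% on the TMM scale.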
